A study of Mus musculus with 4 samples.

Results

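The regions of 7 mouse genes, Stim2, Ttyh2, Zeb2, Lrp4, Gpr25, Camsap2 and Tafa5, were examined for cytosine methylation that was higher after loss of Ogt, in a genome where most methylation was lower. They were picked from 21631 protein-coding genes of the autosomes and X because earlier results on these same 4 libraries showed a higher pooled level in the knockout there. At Gpr25 and Camsap2, and at Tafa5, that was the level of a 10 kb window. Which value singled out Stim2, Ttyh2, Zeb2 and Lrp4 is not given in the sources used here. At these 4 the pooled level around the start of the gene was higher, and it is treated here as if it had chosen them. The direction of these differences therefore comes from the choice, and no test of knockout against control was made on the methylation of the 7 genes. Each region ran from 5 kb before to 5 kb after the RefSeq gene, and together they held 8729 listed CpGs, of which 6588 had at least 1 read in every library.

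The libraries are whole-genome bisulfite sequencing of mouse embryonic stem cells, 2 per group. The Ogt iKO group is Ogt fl/fl cells kept for 6 days with 4-hydroxytamoxifen (4-OHT) and sorted for a YFP reporter. The control group is Ogt fl/fl cells kept without 4-OHT and sorted without a YFP gate, so drug, reporter gate and knockout cannot be told apart. Both groups were grown with LIF on mitomycin C-treated fibroblast feeders, which were then removed by cell sorting. Nothing in the labels says whether libraries of a group came from separate cultures, so their spread may be technical. The tables held 79563364 and 70653901 reads at CpGs of the autosomes and X for iKO, and 68170168 and 63985703 for control, or 3.09 to 3.85 reads per listed CpG.

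The product of Ogt is O-GlcNAc transferase, which puts a sugar on many intracellular proteins, among them the TET dioxygenases that oxidise 5-methylcytosine. In mammals methyl groups sit mostly on the cytosine of CpG pairs. Most of the genome is methylated, whereas CpG islands, the CpG-dense stretches at many gene starts, are usually kept free of it, and levels climb over the shores beside them. Bisulfite does not separate 5-methylcytosine from 5-hydroxymethylcytosine, and each level sums both marks. In bulk DNA a change in every cell and a change in the makeup of the cells cannot be told apart.

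The gene starts whose surroundings carried the differences are shown first, from RefSeq on GRCm38.p6, the assembly that mm10 names. The table matched 6 of the 7 genes with 10 start sites, each given as 300 bases across the start and printed 5′ to 3′ on the strand of the gene. Capitals mark CpGs that were read in every library, and a CpG in lower case had no read in at least 1 of them. These 5 were chosen to show how much of each island could be compared.

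Stim2, chr5:53998273-53998572, plus strand: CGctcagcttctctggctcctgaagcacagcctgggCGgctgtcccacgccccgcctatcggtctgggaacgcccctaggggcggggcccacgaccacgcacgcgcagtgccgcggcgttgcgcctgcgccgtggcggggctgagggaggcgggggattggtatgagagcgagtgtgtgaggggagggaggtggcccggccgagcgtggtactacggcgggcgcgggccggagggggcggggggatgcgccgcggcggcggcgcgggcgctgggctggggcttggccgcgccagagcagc

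Ttyh2, chr11:114675218-114675517, plus strand: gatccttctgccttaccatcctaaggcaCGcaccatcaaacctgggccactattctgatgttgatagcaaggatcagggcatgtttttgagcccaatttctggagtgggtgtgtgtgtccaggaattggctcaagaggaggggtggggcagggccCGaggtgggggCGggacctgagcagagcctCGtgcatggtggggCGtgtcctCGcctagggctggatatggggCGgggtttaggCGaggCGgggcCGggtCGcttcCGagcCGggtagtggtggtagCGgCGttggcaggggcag

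Zeb2, outermost start, chr2:45117393-45117692, minus strand: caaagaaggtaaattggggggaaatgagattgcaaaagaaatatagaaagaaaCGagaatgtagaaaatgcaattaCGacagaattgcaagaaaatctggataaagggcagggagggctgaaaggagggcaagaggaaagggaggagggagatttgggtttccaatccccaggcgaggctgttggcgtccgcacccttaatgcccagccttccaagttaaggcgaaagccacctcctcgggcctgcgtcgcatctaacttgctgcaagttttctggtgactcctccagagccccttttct

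Gpr25, chr1:136260877-136261176, minus strand: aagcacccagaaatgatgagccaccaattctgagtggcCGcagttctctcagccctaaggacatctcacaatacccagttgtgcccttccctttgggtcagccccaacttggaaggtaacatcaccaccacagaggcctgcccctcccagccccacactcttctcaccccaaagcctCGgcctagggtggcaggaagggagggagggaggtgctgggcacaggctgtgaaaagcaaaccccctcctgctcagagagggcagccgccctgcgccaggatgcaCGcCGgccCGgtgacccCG

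Tafa5, downstream start, chr15:87624980-87625279, plus strand: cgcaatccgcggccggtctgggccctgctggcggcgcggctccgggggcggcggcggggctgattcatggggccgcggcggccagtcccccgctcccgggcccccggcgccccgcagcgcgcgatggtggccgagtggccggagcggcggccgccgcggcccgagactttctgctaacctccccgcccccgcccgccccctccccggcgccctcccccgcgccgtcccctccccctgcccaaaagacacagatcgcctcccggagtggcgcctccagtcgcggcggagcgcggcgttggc

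These sequences held 39, 15, 9, 8 and 47 CpGs in the order shown, with Zeb2 and Gpr25 near the median of 7 and the other 3 above it. That median is over the 32851 RefSeq start sites of the table. Read in every library were 2, 15, 2, 6 and 0 of them. At the Stim2 start, iKO 2 and control 1 had reads at all 39 CpGs, but control 2 had reads at only 2. No methylated read was seen there, in 36, 91, 69 and 6 reads of iKO 1, iKO 2, control 1 and control 2, which allows levels of up to 8.33%, 3.30%, 4.35% and 50.0%. A read counts once at each CpG it covers, so these limits, like all such limits below, may be too low. The Ttyh2 start had 1 methylated read in all, of 29 in iKO 2. The outermost Zeb2 start had 0 methylated reads of 44, 9, 32 and 14, which allows up to 6.82%, 33.3%, 9.38% and 21.4%. At the downstream Tafa5 start 0 of 28, 30, 106 and 9 reads were methylated, which allows up to 10.7%, 10%, 2.83% and 33.3%. At the Gpr25 start 6 of 35 and 0 of 6 reads in the iKO libraries were methylated, against 3 of 17 and 5 of 28 in the controls. The 0 of 6 allows up to 50.0%. At the 6 CpGs read in all libraries the counts were 2 of 25 and 0 of 6 against 2 of 15 and 4 of 21. The stretches of gain described next lay outside these 300 bases.

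Over the whole gene regions methylation was lower in the knockout. The regions were cut into 1 kb bins, and a bin was covered if it had at least 3 CpGs and at least 10 reads in every library. A bin was called higher if both iKO libraries were above both controls, and lower if both were below. Of 723 bins 630 were covered, 30 were higher and 232 were lower, or 4.76% and 36.8%. Over 1637280 covered bins of the autosomes and X, 4.28% were higher and 40.1% lower. The 7 regions together thus held higher bins at a share near that of the genome. The median difference was -6.30 percentage points over their bins and -7.83 over all bins. Higher by at least 10 points were 17 of the 630 bins, against 2.18% of all bins.

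By gene, 3 of 118 covered bins were higher at Stim2, 1 of 54 at Ttyh2, 10 of 136 at Zeb2, 3 of 65 at Lrp4, 2 of 12 at Gpr25, 4 of 80 at Camsap2 and 7 of 168 at Tafa5. Lower bins outnumbered higher ones at every gene but Gpr25, where 2 were lower. The lower bins numbered 51 at Stim2, 19 at Ttyh2, 50 at Zeb2, 28 at Lrp4, 34 at Camsap2 and 50 at Tafa5. The regions of Gpr25 and Camsap2 overlap, and bins in both count once in the total. Pooled over its region, Gpr25 was the gene with higher levels in both iKO libraries, 48.6% and 56.3% against 43.0% and 44.0%. Taken apart, its island, its shores and the rest of the region each overlapped between the groups. The median bin difference of Gpr25 was -2.19 points. The other 6 regions were lower in both, by 4.75 points at Tafa5 to 7.57 at Camsap2.

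**Figure D1:**
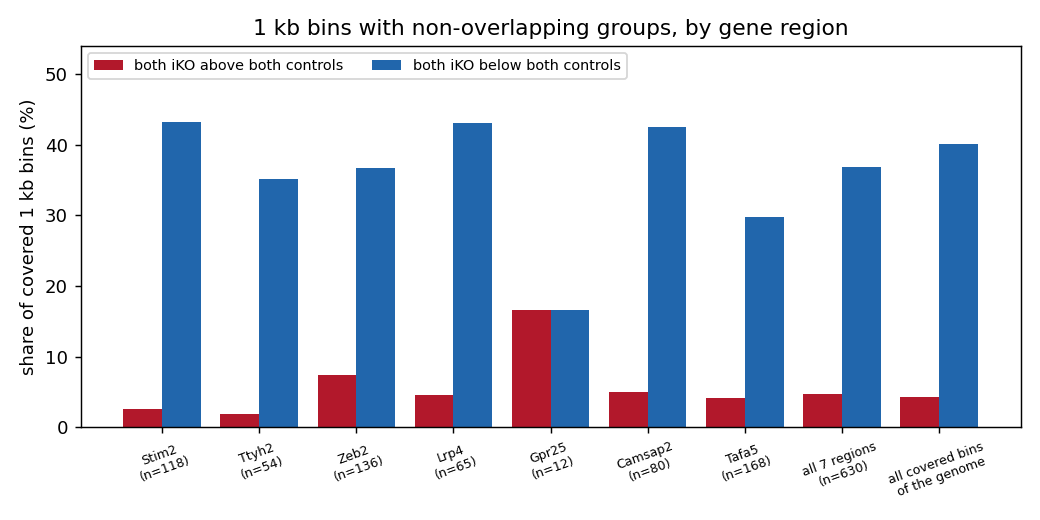
Share of covered 1 kb bins (y axis, %) in which both iKO libraries were above (red) or below (blue) both controls, for each gene region, for all 7 regions and for the genome, with the number of covered bins under each name. The red bar of all 7 regions, 4.76%, is close to that of the genome, 4.28%, and Gpr25 with 12 bins is the only gene whose red and blue bars are level.

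The higher bins were scattered. The longest run of successive higher bins was 2 bins, at Zeb2 on chromosome 2 from 45113001 to 45115000, and in the other 6 genes no run passed 1 bin. In that run the iKO libraries were at 25.4% and 29.0% and the controls at 22.8% and 14.5% over 20 CpGs. Its first bin, counted as an island bin, holds most of an island 4 kb inside the gene, at 45112883 to 45113474, and reaches beyond it. That island as a whole was lower, at 3.70% and 1.85% against 3.85% and 5.00%. The first bin of the run holds inner Zeb2 start sites, given as 45113204 to 45113503 and 45113230 to 45113529. Each held 2 CpGs read in every library, with 1 of 2 and 0 of 8 methylated reads against 2 of 8 and 1 of 5. The 0 of 8 allows up to 37.5%. The run overlaps Zeb2os, an antisense-named long noncoding RNA gene at 45111138 to 45114087. Its first bin was also the call nearest to the threshold, with iKO 1 at 9.30%, iKO 2 at 11.4% and the controls at 7.50% and 9.26%. A Tafa5 bin at 87586001, with 79.4% and 87.5% against 68.8% and 79.3%, was the next nearest. Among the bins just outside the threshold were island bins at 87544001 in Tafa5 and at 45109001 in Zeb2. There all 4 libraries had 0 methylated reads, which allows up to 3.66% and 3.70% in the shallowest. The Stim2 island bin at 53999001 was as near, with 0 of 68 and 2 of 83 methylated reads against 0 of 42 and 0 of 83. Exact 95% binomial intervals, which cover counting error only since reads carry no molecular identifiers, were computed for the 30 higher bins. In 0 of the 30 did both iKO intervals lie above both control intervals.

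By position, 4 of 36 covered island bins, 6 of 59 shore bins, 18 of 499 bins of the gene bodies and 2 of 36 flank bins were higher. The genome had 6.6% of island bins, 4.14% of shore bins and 4.2% of other bins higher. Here an island is any 500 bp with at least 20 listed CpGs, and a shore lies within 2 kb of one. Pooled over the 7 regions, islands were at 19.0% and 20.7% for iKO and 17.6% and 15.8% for control, a difference of 3.22 points. With every CpG weighted equally it was -2.24 points. Shores were at 60.2% and 61.6% against 66.3% and 68.5%, bodies at 73.2% and 70.4% against 77.7% and 80.9%, and flanks at 65.2% and 67.1% against 71.2% and 76.2%. Shores, bodies and flanks were thus lower in both iKO libraries, by 6.49, 7.49 and 7.49 points. The flank difference was -4.97 without control 2 and -10.0 without control 1.

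The regions held 20 islands, of which 3 were higher as a whole, 11 lower and 6 overlapping, where 6.53% of all 45728 islands measured were higher and 36.6% lower. Since the genes were chosen on this contrast, nothing is read from the count. The 3 higher ones were those at the starts of Stim2, Zeb2 and Tafa5, the last at its first start. The Zeb2 island rested on 2 of 96 and 2 of 78 methylated reads against 1 of 115 and 0 of 130, which allows up to 2.31%. The other island of the Stim2 region, at the long noncoding RNA gene Gm30601, was lower, at 0 of 46 reads and 5.26% against 5.80% and 7.78%. A count of 0 there allows up to 6.52%. Among these 20 islands the largest losses were inside gene bodies. The Lrp4 island at 91477193 was at 53.7% and 37.2% against 80.0% and 70.6%, and the Tafa5 island at 87583793 at 59.8% and 63.6% against 86.8% and 92.9%.

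**Figure D2:**
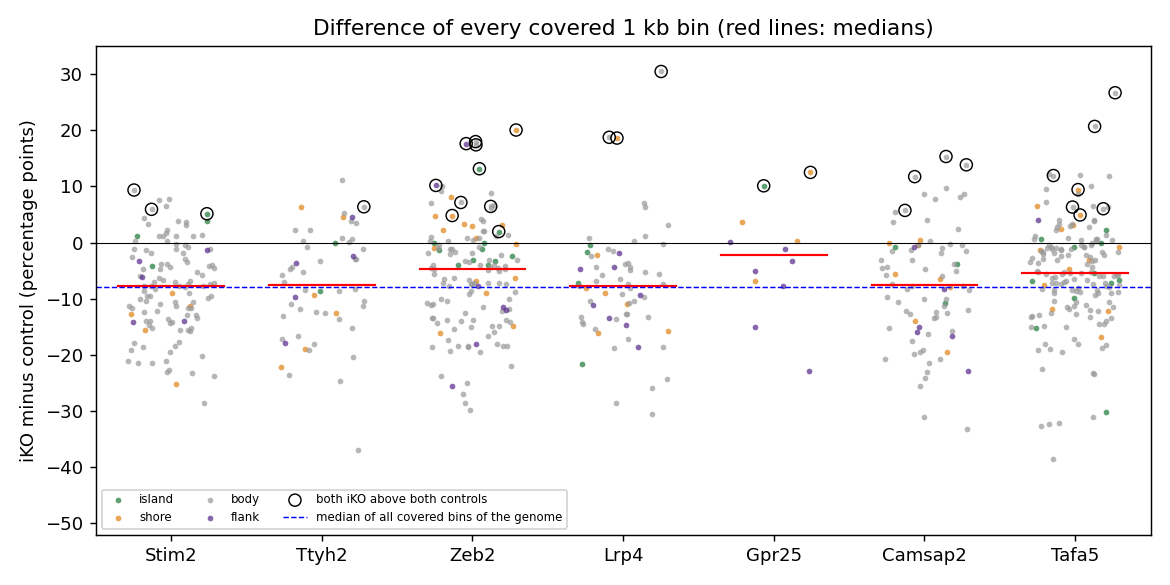
Each point is a covered 1 kb bin, with its iKO minus control difference in percentage points on the y axis (mean of 2 libraries each), coloured by position and spread sideways at random within its gene. Circles mark the 30 bins with both iKO libraries above both controls, red lines the median of each gene (-7.69 at Stim2 to -2.19 at Gpr25), and the dashed line the median of the genome, -7.83.

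Stim2, an endoplasmic reticulum calcium sensor that opens Orai channels in store-operated calcium entry, lies on chromosome 5 at 53998523 to 54121057 on the plus strand. From 1000 bases before to 500 after its start, 21 CpGs had reads in every library. The pooled level was 22.9% and 17.9% in the iKO libraries, 0 of 56 reads in control 1, which allows up to 5.36%, and 1.2% in control 2. The means were 20.4% ± 3.51 and 0.602% ± 0.852 (SD, n = 2 each), and both iKO libraries stood above both controls. All 21 CpGs lie in the island. The difference of 19.8 points became 7.82 with CpGs weighted equally and 9.44 with each CpG given its mean depth over the 4 libraries. With all CpGs listed in each library, whether or not the others read them, it was 2.94 points at Stim2. The start sides of the other genes differed on that basis by 17.3 at Ttyh2, 11.5 at Zeb2, 8.84 at Lrp4 and 16.3 at Gpr25.

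Nearly all methylated reads around the Stim2 start, 11 of 11 in iKO 1 and 6 of 7 in iKO 2, came from a short stretch at the outer edge of the island. Within 1000 bases of each start, the run of CpGs with the largest sum of differences was located, a choice made on the values themselves. At Stim2 the run was 242 bases, 53997893 to 53998134, 389 to 630 bases before the start. Its 8 CpGs had 11 of 31 and 6 of 22 methylated reads for iKO and 0 of 22 and 0 of 21 for control. If these reads were independent, up to 13.6% and 14.3% would remain possible. No CpG there had more than 5 reads in either control, so fewer fragments lie behind these totals and higher levels remain possible. The stretch crosses a bin border. The bin before it, at 53997001, overlapped between the groups, at 58.2% and 43.2% against 30.2% and 63.6%. The bin that holds the start, at 53998001, had 1 methylated read of 20 and 1 of 19 against 0 of 32 and 0 of 74, which allows up to 9.38% and 4.05%. The other higher bins of Stim2 were in the body, at 54047001 and 54114001, with gains of 5.91 and 9.35 points.

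Ttyh2, a membrane protein of the tweety family, lies on chromosome 11 at 114675468 to 114720984 on the plus strand. Its start side was at 21.4% and 22% against 5.92% and 2.91%, a difference of 17.3 points over 44 CpGs. The 37 CpGs within the island were at 0 of 63 reads, which allows up to 4.76%, and at 1.72% in the iKO libraries, against 0.746% and 1.16%, a difference of -0.0925 points. The 7 CpGs outside it were at 60% and 57.6% against 44.4% and 11.8%. They differed by 30.7 points both pooled and with CpGs weighted equally, with only 18 and 17 control reads. They held 35.7% and 36.3% of the reads of the start side for iKO and 11.8% and 16.5% for control. With CpGs weighted equally the start side differed by 3.75 points. The stretch of gain was 114674493 to 114674823, 645 to 975 bases before the start, with 18 of 31 and 17 of 28 methylated reads against 7 of 16 and 1 of 15. The controls themselves were far apart there, at 43.8% and 6.67%. No covered bin at the start was higher, and the 1 higher bin of Ttyh2 lay in the body at 114715001, at 83.3% and 80.3% against 71.9% and 79.0%.

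Zeb2, a zinc finger repressor that drives epithelial-mesenchymal transition and neural crest development, lies on chromosome 2 at 44983512 to 45117442 on the minus strand. Its outermost start side was at 19.1% and 19.2% against 8.18% in control 1 and 0 of 107 reads in control 2, which allows up to 2.80%. The means were 19.2% ± 0.0989 and 4.09% ± 5.79 (SD, n = 2 each). The difference of 15.1 points was 6.20 with CpGs weighted equally. Within the island 28 CpGs were at 3.17% and 5.00% against 1.27% and 0, which allows up to 3.26% in control 2. The 6 CpGs outside were at 40.4% and 34.2% against 25.8% and 0 of 15 reads, which allows up to 20%. They differed by 24.4 points pooled and by 23.4 with CpGs weighted equally.

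At Zeb2 the bin that holds the outermost start was higher, though the 300 bases across that start had 0 methylated reads in every library. Bin 45117001 had 12 of 85 and 8 of 56 methylated reads against 2 of 94 and 0 of 95, or 14.1% and 14.3% against 2.13% and 0, which allows up to 3.16%. Most methylated iKO reads of that bin came from the stretch of gain, which begins in it upstream of the start. The stretch ran from 45117739 to 45118351, 297 to 909 bases before the start. Its levels were 33.3% and 34.1% against 23.1% and 0 over 7 CpGs. The last value was 0 of 23 reads, which allows up to 13.0%. The 10 higher bins of Zeb2 were the most among the 7 genes, beside 50 lower ones. Of the 10, 2 lay beyond the far end of the gene, at 44979001 and 44981001, and 4 in the body.

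Lrp4, the receptor for agrin at the neuromuscular junction and partner of the kinase MuSK, lies on chromosome 2 at 91457456 to 91513901. The promoter table holds no entry for it, so its CpG-denser end, the lower coordinate, was read. That end was at 21.2% and 18.0% against 4.14% and 6.19%, means of 19.6% ± 2.27 and 5.17% ± 1.45 (SD, n = 2 each). The difference of 14.4 points was 2.25 with CpGs weighted equally. Of its 49 CpGs 41 lay in the island, where both iKO libraries had 0 methylated reads, of 59 and 58, which allows up to 5.08% and 5.17%, against 2.27% and 1.14%. The 8 CpGs of the shore were at 52.5% and 42.9% against 23.1% and 24.0%. They differed by 24.1 points pooled and by 19.8 with CpGs weighted equally, with only 13 and 25 control reads. They held 40.4% and 42.0% of the iKO reads but 8.97% and 22.1% of the control reads.

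The gain at Lrp4 lay in the shore. Bin 91456001 was at 49.0% and 36.4% against 25.9% and 22.2%, and the stretch within it, 556 to 890 bases outside the gene, was at 53.8% and 47.4% against 27.3% and 26.3%. Those control levels rested on 11 and 19 reads over 7 CpGs. The neighbouring bins on both sides were not higher. In the body the bins at 91486001 and 91509001 gained 18.7 and 30.5 points, from 3 and 4 CpGs.

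**Figure D3:**
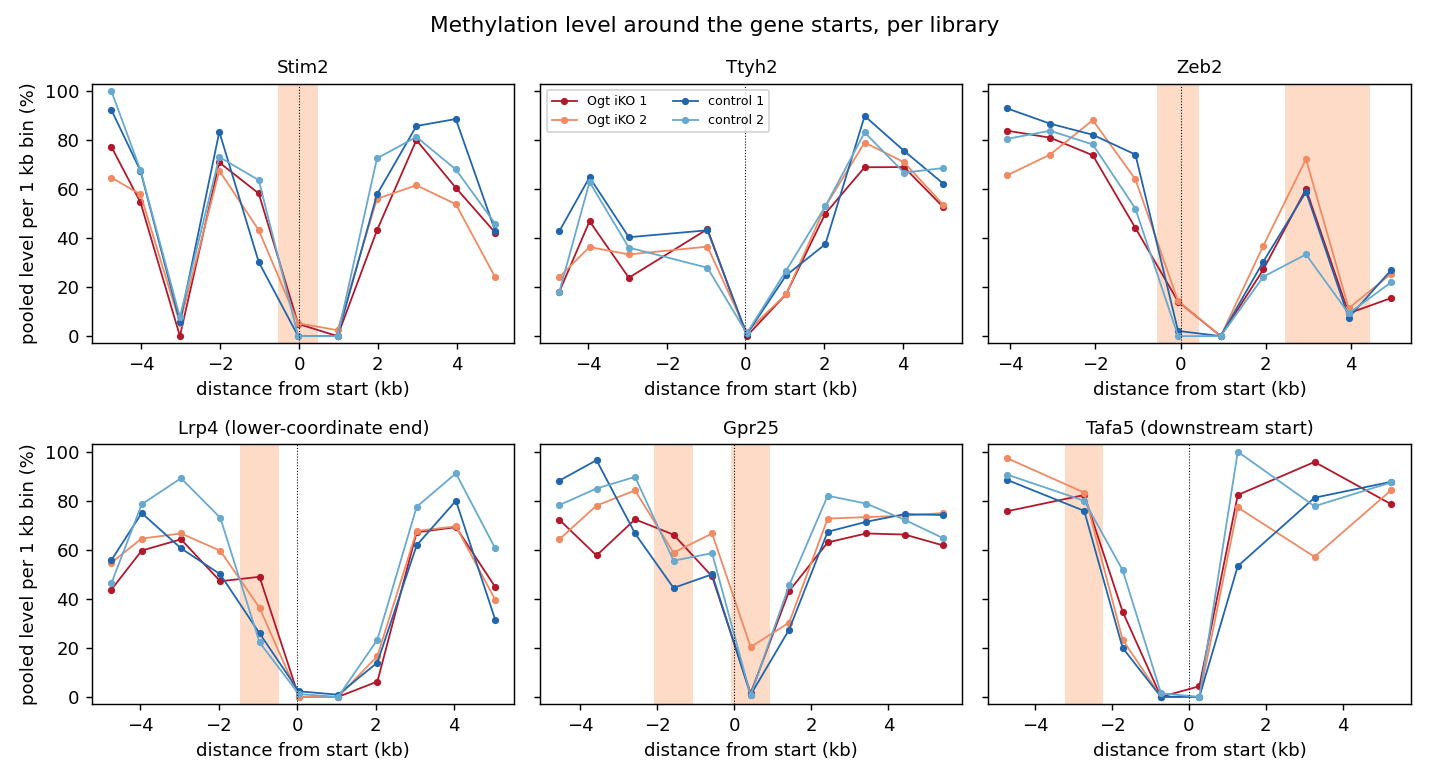
Pooled level of each library (y axis, %) in covered 1 kb bins by distance from the gene start in kb (x axis), running in the direction of transcription, with iKO libraries in red and orange and controls in blue. For Lrp4 the distance is from the lower-coordinate end, and for Tafa5 from its downstream start. Camsap2 is not shown. Shading marks bins with both iKO libraries above both controls, and each shaded stretch is 1 bin wide except the 2-bin run inside Zeb2.

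Gpr25, a G protein-coupled receptor gene of 2013 bases, lies on chromosome 1 at 136258914 to 136260926 on the minus strand, and Camsap2, whose product binds the minus ends of microtubules, lies beside it at 136268123 to 136346117, also on the minus strand. The window of both genes, 136260001 to 136270000, was at 52.6% and 54.9% against 39.8% and 41.5%, a difference of 13.1 points. Its 79 island CpGs were at 2.14% and 20.2% against 1.22% and 1.52%. Its 81 other CpGs were at 69.4% and 69.5% against 77.2% and 75.5%, lower in both iKO libraries. The other CpGs held 75.0% and 70.3% of the reads for iKO and 50.8% and 54% for control. With CpGs weighted equally the window differed by -0.313 points, and with common weights by -1.32.

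The island part of the Gpr25 gain was in 1 library. Bin 136260001 had 2 of 138 methylated reads in iKO 1, 24 of 118 in iKO 2, 2 of 243 in control 1 and 2 of 262 in control 2. Within 136260201 to 136260574, inside the gene and 352 to 725 bases from its start, 42 CpGs had reads in every library. In iKO 2, 24 of these CpGs carried exactly 1 methylated read each, from at most 2 reads per CpG. iKO 1 had 0 of 50 reads there, which allows up to 6.00%, and the controls 0 of 146 and 0 of 158, which allows up to 2.05% and 1.90%. Without iKO 2, the bin was at 1.45% against 0.823% and 0.763%. Neighbouring CpGs share reads, so these 24 are not independent. The start side of Gpr25 was at 17.5% and 22.1% against 6.11% and 10.7% over 54 CpGs, 11.4 points. With CpGs weighted equally it was at 7.53% and 20.5% against 9.18% and 11.9%, so that the remaining 3.50 points came from iKO 2 and iKO 1 was below both controls. The 7 CpGs of this start side outside the island differed by -7.26 points weighted equally, with overlapping groups. The bin at 136262001, a shore upstream of Gpr25, was the other higher bin, at 66.2% and 58.8% against 44.4% and 55.6%.

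The start side of Camsap2, at the end of its span away from Gpr25, was lower in the knockout when pooled. It was at 3.86% and 2.63% against 6.03% and 6.80% over 60 CpGs, or -0.862 points with CpGs weighted equally. At its 54 island CpGs the groups overlapped, at 1.64% and 0.806% against 0 of 93 reads, which allows up to 3.23%, and 2.56%. The 6 CpGs outside were at 12.0% and 10.7% against 30.4% and 23.3%. In the 300 bases across the start 0 of 102, 72, 53 and 20 reads were methylated, which allows up to 2.94%, 4.17%, 5.66% and 15.0%. The 4 higher bins of Camsap2 all lay in the body, at 136275001, 136287001, 136314001 and 136320001, with gains of 5.72 to 15.3 points from 3 to 7 CpGs. In the bin at 136287001 the controls were at 54.5% and 81.6%, so that control 2 was within 0.564 points of the lower iKO library.

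Tafa5, a secreted chemokine-like protein of the brain, lies on chromosome 15 at 87544219 to 87759364 on the plus strand. Its window, 87620001 to 87630000, surrounds a downstream start and was at 45.7% and 55.6% against 44.3% and 33.7%. Group means were 50.6% ± 7.04 and 39.0% ± 7.49 (SD, n = 2 each), which differ by 11.7 points. Without control 2 it was 6.37, and without iKO 2 it was 6.69. Neither part of the window differed by as much. The 58 island CpGs were at 1.92% and 0 of 75 reads, which allows up to 4.00%, against 1.03% and 3.14%. The 44 other CpGs were at 81.7% and 80.7% against 74.6% and 87.2%, a difference of 0.338 points. They held 54.8% and 68.9% of the iKO reads and 58.7% and 36.3% of the control reads. With CpGs weighted equally the window differed by -2.40 points.

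The start side at the first start of Tafa5 was lower when pooled, at 7.14% and 7.46% against 9.52% and 17.5%. With CpGs weighted equally the groups overlapped, with a difference of -1.44 points. Its 47 island CpGs had 1 of 59 and 1 of 61 methylated reads for iKO. The controls had 1 of 69 and 0 of 76 there, which allows up to 3.95%. At the 4 CpGs outside the island the groups overlapped, at 4 of 11 and 4 of 6 against 7 of 15 and 17 of 21. All 4 libraries had 0 methylated reads in the 66 covered CpGs of bin 87544001, in 92, 82, 97 and 110 reads. None of the 7 higher bins of Tafa5 was an island bin. They comprised 2 shore bins, at 87586001 and 87622001, and 5 body bins, the largest gain being 26.7 points at 87730001 from 3 CpGs and 10 to 15 reads per library. The island of the first start, 87543662 to 87545539, was higher as a whole, at 7.03% and 8.33% against 1.69% and 2.90%, while bin 87545001, which holds its inner edge, had overlapping groups at 31.3% and 40.5% against 38.2% and 53.3%.

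**Figure D4:**
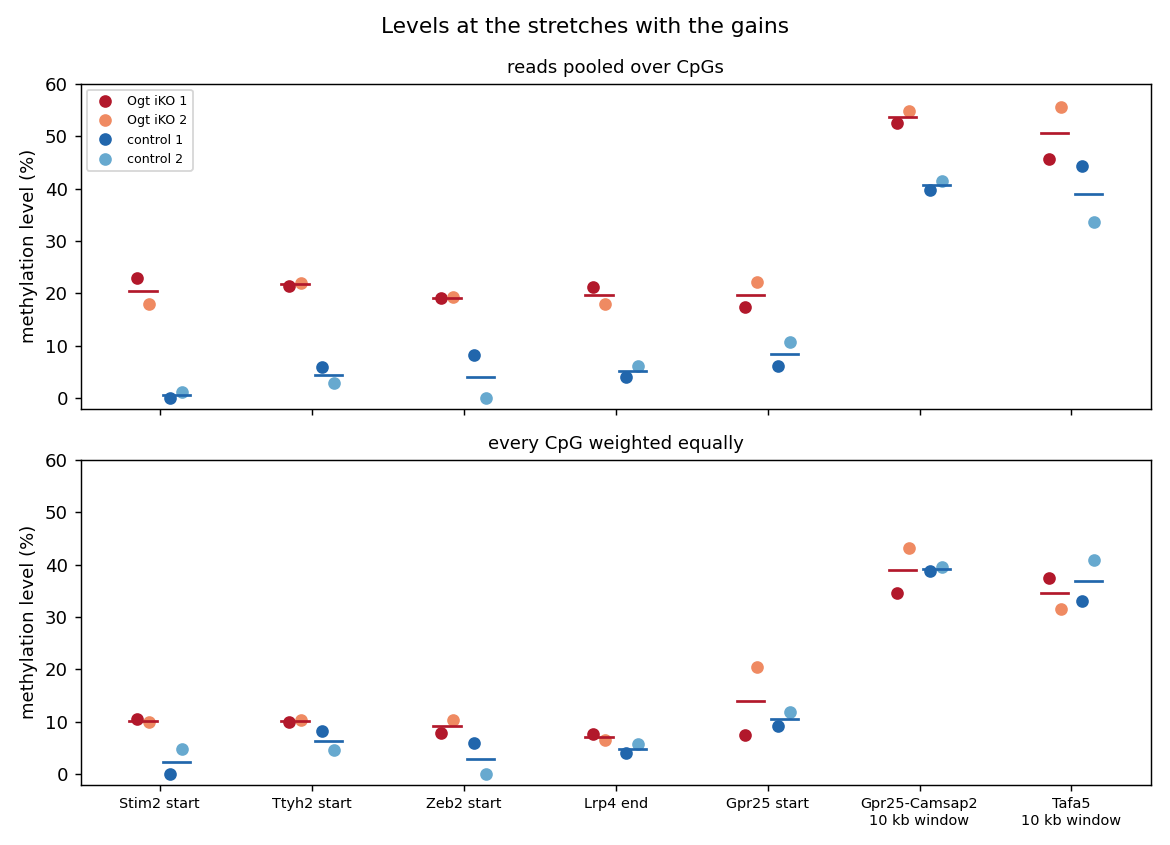
Methylation level (y axis, %) of each library at the 5 start sides and the 2 windows with the gains, from reads pooled over CpGs (top) and with every CpG weighted equally (bottom). Short lines are group means of 2 libraries. Differences of 11.4 to 19.8 points at the start sides in the top panel are 2.25 to 7.82 in the bottom panel, where iKO 1 is below both controls at Gpr25, and both window differences fall below 0.

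A level pooled over reads weights each CpG by its depth, so depth is not independent of how the genes were chosen and is given as a description. Depth per listed CpG, relative to that of the whole library, in the islands of the 7 regions was 0.511 and 0.563 for iKO, against 0.679 and 0.657 for control. Outside islands it was 1.04 and 1.03 against 1.02 and 1.05. In all islands of the genome it was 0.694 and 0.691 against 0.705 and 0.738. The Gpr25 island was at 0.401 and 0.45 against 0.870 and 0.831, the islands of Lrp4 at 0.544 and 0.547 against 0.765 and 0.786, and that of Ttyh2 at 0.559 and 0.448 against 1.21 and 0.614. The groups overlapped in the islands of Stim2, at 0.580 and 0.588 against 0.753 and 0.550, and in those of Zeb2, Camsap2 and Tafa5. The island at the Stim2 start was deeper in the iKO libraries, at 0.612 and 0.627 against 0.488 and 0.419. Over the whole 7 regions the difference in depth was -0.0268, -0.0157 without control 2 and -0.0379 without control 1. A two-sided exact permutation test of this depth gave 0.333, the smallest p that 2 against 2 libraries allow, so nothing is read from it. The part of depth in the gains was not tested.

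The start sides of the members were set beside those of other genes. Start sides with at least 10 CpGs and 30 reads in every library numbered 16007, of which 6.76% were higher and 34.9% lower. By the size of the gain Stim2 ranked 5, Ttyh2 11, Zeb2 27, Lrp4 33 and Gpr25 80 of them. These gains come from the contrast that chose the genes, so the ranks are a description only. The 5 largest gains outside the 7 genes, with both iKO libraries above both controls, were at Folh1, Irf7, Klhl1, Reep4 and Slc7a14. Folh1, a glutamate carboxypeptidase, was at 52.6% and 44.7% against 25.5% and 18.3%, 26.8 points, or 9.23 with CpGs weighted equally. Irf7, a regulator of interferon genes, was at 52.7% and 35.8% against 21.7% and 18.6%, 24.1 points, or 11.8 weighted equally. The gains weighted equally were 8.75 points at Klhl1, 2.45 at Slc7a14 and 0.697 at Reep4, and at these 3 the groups then overlapped. Of 91 start sides higher by at least 10 points, 18 were also higher by at least 10 with CpGs weighted equally, and 73 stayed above 0.

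By the share of higher bins, among 17927 genes with at least 10 covered bins, Gpr25 ranked 293, Zeb2 3164 and Ttyh2 11612. The 5 genes with the largest shares were the homeobox genes Barx1, Hoxc10, Lbx1 and Hoxc9 and the heart and limb regulator Hand2. The regions of Hoxc10 and Hoxc9 overlap, so some bins count for both. Barx1 had 7 of 12 bins higher, and Hoxc10 7 of 14. Their median bin differences, 2.17 to 4.02 points, were above 0, where those of the 7 members were all below it.

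Of 21 listed relatives and partners of the members, 17 had a measured start side, of which 2 were higher and 6 lower, beside 6.76% and 34.9% of all start sides. Tafa2, a paralogue of Tafa5, was at 23.4% and 17.8% against 7.25% and 16.0%, but the groups overlapped with CpGs weighted equally, with a difference of 0.641 points. Twist1, a transcription factor of the same transition as Zeb2, was at 1.75% and 1.75% against 0 and 0, which allows up to 4.41% and 3.66%. Musk, the kinase partner of Lrp4, was lower, at 72.2% and 78.9% against 87.3% and 91.9%. Over all 21 regions 81 of 1649 bins were higher, or 4.91%, near the 4.28% of the genome.

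The cell types were read only as levels at marker starts, since no expression was measured. Of 8 embryonic stem cell markers, Pou5f1 and Sox2 among them, 0 start sides were higher and 4 lower, with medians of 0.709% and 0.500% for iKO, against 2.78% and 3.74%. Of 8 fibroblast markers 6 were measured, 1 was higher, Pdgfrb, and 3 were lower. With CpGs weighted equally the groups overlapped at Pdgfrb, with a difference of -1.08 points. The fibroblast medians were 12.2% and 16.6% for iKO, against 19.7% and 22.3%. Over all start sides 6.76% were higher and 34.9% lower.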

How the data were processed

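Genomic DNA of 4 libraries, 2 Ogt iKO and 2 control, was measured by whole-genome bisulfite sequencing, and each deposited table holds 1 library, matched to its sample by the genotype and number in its name. File names give BSMAP, mm10 and methratio as the authors' aligner, genome and methylation caller. The submitters' processing notes also name Picard, with no role. Versions and duplicate removal are not given in the sources used here. Per the file headers, the deposited values are read counts (methylated reads, total C or T reads, and G and G or A reads of the other strand), an expected count (C or T reads corrected for C/T variants) and a fraction, the authors' methylation level. Levels here are methylated over all C or T reads, and the expected count served in 1 alternative.

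Python 3.11.15 with NumPy 2.4.6, pandas 2.3.3 and PyArrow 21.0.0 joined the counts, and SciPy 1.17.1 gave exact intervals. Only CpGs read in all 4 libraries were used, 16341360 of 20677079 listed on the autosomes and X, or 79.0%. Bins followed a fixed 1 kb grid cut at region ends and needed at least 3 CpGs and 10 reads in every library. Limits for a count of 0 are 3 reads over the total. Reads are summed over CpGs and 1 fragment can count at several, so the limits and the exact intervals can be too narrow. Gene positions are RefSeq GRCm38.p6, and strand was known for 17274 of 21631 genes. Other genes were read at their CpG-denser end. The bin counting was tested on simulated data.

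The members, the gene lists and the alternatives were chosen with earlier results of these data known. Other genes were named by rule: the 5 with the largest share of higher bins among genes with at least 10 covered bins, the 5 with the largest gain at the start side with both iKO libraries above both controls, and fixed lists of 21 relatives and partners, 8 stem cell markers and 8 fibroblast markers. The stretches of gain were located after the values were seen. Lambda, mitochondrial and Y reads were not analysed here.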

Additional observations from a re-analysis of the deposited data

How the results depend on the processing

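The 30 higher bins of 630 covered numbered 14 of 270 among CpGs with at least 3 reads in every library, or 5.19% beside 4.79% of the genome, and 0 of 5 with at least 5 reads. They numbered 16 of 408 with at least 5 CpGs and 20 reads per bin (3.92% beside 3.48%), 11 of 358 in 2 kb bins (3.07% beside 3.10%) and 17 of 630 with a gain of at least 10 points (2.70% beside 2.18%). With each library's median subtracted 137 were higher and 80 lower, where the genome had 19.0% higher and 16.7% lower. That share of higher among called bins, 63.1%, stood beside 53.3% for the genome. Leaving out 1 library gave 70 to 122 higher bins, against 10.8% to 18.1% of all bins. The fewest came without control 1 and the most without control 2. Comparing only same-numbered libraries (replicate block) gave 48, against 7.5% of all bins. Whether the numbers pair the libraries is not known. Same-numbered deviations had a correlation of -0.00663 over bins. Counting error at this depth weakens such a correlation, so it cannot exclude pairing. The class differences are the same with the block by arithmetic, and their same-numbered pairs were 1.44 and 4.99 points for islands, -6.09 and -6.89 for shores, -4.48 and -10.5 for bodies and -5.93 and -9.05 for flanks. The longest run was 0.5 kb in 500 bp bins and 3 kb without any 1 library.

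The island difference of 3.22 points was -0.0339 with islands of at least 15 CpGs, 1.90 with at least 30, 0.315 with at least 3 reads, -2.24 with CpGs weighted equally, and 2.29 to 4.14 without 1 library. The shore difference was -3.10 with islands of at least 30 CpGs, -4.74 with shores of 1 kb and -4.85 with CpGs weighted equally. Shores, bodies and flanks stayed lower under every alternative run. The Gpr25 and Camsap2 window was at -0.313 with CpGs weighted equally, -1.32 with common weights and -6.35 with at least 3 reads, and the Tafa5 window at -2.40, -2.54 and -0.906, the weightings having been chosen after the data were seen. With all CpGs listed in each library these windows were at 16.1 and 13.2. With at least 3 reads the Tafa5 value rested on 4 CpGs and that of Gpr25 and Camsap2 on 24. The start sides then differed by 0 at Ttyh2 (3 CpGs) and Lrp4 (1 CpG) and by 19.9 at Zeb2 (4 CpGs). No CpG of the Stim2 or Gpr25 start side had that many reads in every library, so neither could be compared. The cause of these changes was not tested beyond the weights themselves. At 3.09 to 3.85 reads per CpG, a level of a stretch of 6 to 8 CpGs rests on few fragments.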
